A study of Sus scrofa with 23 samples.

Results

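The aryl hydrocarbon receptor gene AHR (ENSSSCG00000030484) and TIPARP (ENSSSCG00000027646) were described in the backfat of 23 pigs. They are 2 of the 25322 gene identifiers counted in each pig, of which 18521 had at least 1 read in a pig. Both were selected on the deposited counts of group III (+cDDGS+beef tallow), which were higher than those of the groups fed rapeseed oil. The differences of group III from the other groups are therefore given below as a description, without a test, and tests were kept to the other groups and to the sexes.

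The pigs were crossbred fatteners born of Polish Landrace × White Large Polish sows and sired by a Duroc × Pietrain boar, and they were penned one by one. According to the methods of the study, the females were gilts and the males were barrows, that is, castrated. The control diet with rapeseed oil and no cDDGS (group I) was fed to 7 pigs, of which 4 were female. The same oil with cDDGS (group II) went to 6 pigs, 3 of each sex. Beef tallow with cDDGS (group III) went to 5 pigs with 2 females, and coconut oil with cDDGS (group IV) to another 5 with 3 females. cDDGS are the dried residue of maize after distilling, and the diets were made equal in energy. Groups II, III and IV all received cDDGS, so group III differed from group II in the added fat alone, while it differed from group I in cDDGS and in fat, which cannot be told apart in that comparison. Ages at slaughter are not given in the sources used here.

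AHR is a receptor of the bHLH-PAS family of transcription factors. It waits in the cytoplasm in a complex with HSP90, moves to the nucleus when it binds a ligand such as a polycyclic aromatic compound, an indole or a tryptophan metabolite, and there pairs with ARNT to switch on target genes, of which the cytochrome P450 gene CYP1A1 is the classical one. TIPARP, also named PARP7, is another target gene of this receptor. It encodes an enzyme that attaches single ADP-ribose units to proteins, AHR among them, and it is known as a negative regulator of the receptor. In fat cells, AHR is known for its effects on adipocyte differentiation and lipid metabolism.

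The libraries held 2437172 to 7979426 reads on genes, with a median of 4717511. The tissue label was checked against markers of fat cells, and PLIN1, which coats the lipid droplet, averaged 1182 CPM over the 23 pigs, LIPE, the hormone-sensitive lipase, 535 CPM and CIDEC, a lipid droplet protein, 300 CPM. CPM are counts scaled with TMM factors to a library of 1e6 reads. In 56 comparisons of pigs within a diet, the chi-square divided by its degrees of freedom was never below 7.02, so no library of a diet matched another within counting noise. The RNA was partly degraded according to the methods of the study, and in a piece of tissue fewer cells of a type cannot be told apart from less RNA per cell.

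AHR was present at a moderate level in every pig. In group I its level was 30.1 CPM in pig 1, 20.5 in pig 2, 24.0 in pig 3, 23.3 in pig 5, 19.7 in pig 6, 20.5 in pig 7 and 19.4 in pig 8. In group II it was 19.1 CPM in pig 17, 24.6 in pig 19, 22.7 in pig 20, 24.9 in pig 21, 40.8 in pig 22 and 39.0 in pig 24. Group I was thus narrow apart from pig 1, whereas group II split into 4 pigs near the level of group I and 2 pigs well above it, both of them male. In group III AHR reached 31.5 CPM in pig 41, 35.9 in pig 43, 51.9 in pig 45, 37.8 in pig 46 and 42.4 in pig 48. In group IV it was 29.4 CPM in pig 49, 23.6 in pig 52, 20.5 in pig 53, 41.2 in pig 54 and 27.8 in pig 55. Group IV had a single pig, the male pig 54, within the range of group III.

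In ascending order, the mean AHR levels were those of group I with 22.5 ± 3.77 CPM (SD, n = 7), group IV with 28.5 ± 7.89 CPM (SD, n = 5), group II with 28.5 ± 9.07 CPM (SD, n = 6) and group III with 39.9 ± 7.77 CPM (SD, n = 5). These values rested on 49 to 262 reads of AHR per pig. The reads of pig 6, the fewest, had an exact Poisson interval from 36.3 to 64.8 reads at the 95% level, which covers counting error only. Counting alone would give a coefficient of variation of 10.2% in group I and 9.87% in group II, against 16.8% and 31.8% measured between the pigs.

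TIPARP was read more deeply, with 166 to 776 reads per pig. In group I its level was 76.2 CPM in pig 1, 63.0 in pig 2, 45.9 in pig 3, 71.2 in pig 5, 92.3 in pig 6, 51.9 in pig 7 and 79.3 in pig 8. In group II it was 59.7 CPM in pig 17, 44.0 in pig 19, 55.3 in pig 20, 73.7 in pig 21, 46.9 in pig 22 and 104.0 in pig 24. The pigs fed rapeseed oil had overlapping levels with and without cDDGS, and pig 24 was the highest of the 13. In group III TIPARP reached 130 CPM in pig 41, 104.1 in pig 43, 155 in pig 45, 112 in pig 46 and 114 in pig 48. In group IV it was 81.2 CPM in pig 49, 78.2 in pig 52, 48.7 in pig 53, 146 in pig 54 and 97.4 in pig 55. Group IV was the most scattered of the 4 groups, with a coefficient of variation of 39.4% against 16.4% in group III.

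The order of the TIPARP means was group II with 63.9 ± 22.3 CPM (SD, n = 6), group I with 68.5 ± 16.2 CPM (SD, n = 7), group IV with 90.2 ± 35.6 CPM (SD, n = 5) and group III with 123 ± 20.1 CPM (SD, n = 5). Pig 45 of group III had the highest level of both genes among the 23 pigs. Levels of the 2 genes were not compared with each other, because CPM are not corrected for transcript length.

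**Figure D1:**
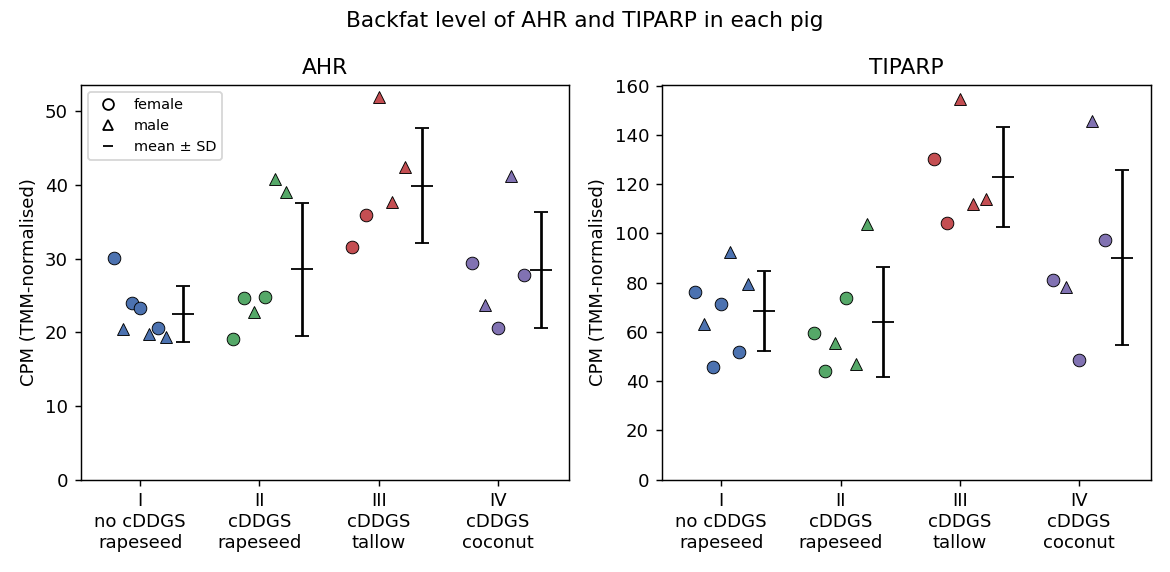
AHR (left) and TIPARP (right) in TMM-normalised CPM on the vertical axis, with 1 point per pig, circles for females, triangles for males, and the mean ± SD beside each of the 4 diet groups. The 5 pigs of group III lie between 31.5 and 51.9 CPM for AHR and between 104.1 and 155 CPM for TIPARP, above every pig of group I for both genes.

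Against group I, the values of group III did not overlap for either gene. The lowest AHR level of group III was 31.5 CPM and the highest of group I was 30.1 CPM, and for TIPARP the same limits were 104.1 and 92.3 CPM. Over all 11039 genes with sufficient counts, 0.208% had every pig of group III above every pig of group I. The log2 fold change of group III over group I was 0.82 ± 0.14 (SE) for AHR and 0.85 ± 0.16 (SE) for TIPARP, or 1.77-fold and 1.80-fold. These values were used to choose the genes and carry no test here. Across all genes, edgeR called 0% of the 10423 genes tested in this comparison at an adjusted p under 0.05 with a fold change above 1.3. DESeq2, run on the same counts, called 13 genes, and at an unadjusted p under 0.05 edgeR counted 424 genes higher and 406 lower.

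Against group II, the diet that shared cDDGS with group III, the overlap was not the same for the 2 genes. All 5 pigs of group III were above all 6 of group II for TIPARP, although by a margin of 104.14 against 103.97 CPM, while 2 of the 5 were above every pig of group II for AHR. The share of all genes with every pig of group III above every pig of group II was 0.236%. Because the genes were chosen on group III against the rapeseed oil groups, this share is a description only. The log2 fold change was 0.96 ± 0.20 (SE) for TIPARP and 0.50 ± 0.21 (SE) for AHR. Here, too, edgeR called 0% of the 10410 genes tested, while DESeq2 called 21, and at an unadjusted p under 0.05 edgeR counted 290 higher and 357 lower.

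Set against all 13 pigs fed rapeseed oil, TIPARP was 1 of 2 genes, or 0.0181% of the 11039, with all 5 pigs of group III above. AHR was not, since pigs 22 and 24 of group II lay within the range of group III. Both genes were chosen on this contrast, so the share is a description and no measure of rarity. The separation of TIPARP rested on 104.14 CPM in pig 43 against 103.97 CPM in pig 24. Pig 24 had 240 TIPARP reads, with a Poisson interval from 210.59 to 272.36 reads. The margin thus lay within counting error. Against group IV neither gene separated. There, 2 of 5 pigs of group III were above all 5 of group IV for AHR and 1 of 5 for TIPARP, where 0.308% of all genes had every pig of group III above every pig of group IV. The log2 fold change of group III over group IV was 0.49 ± 0.19 (SE) for AHR and 0.44 ± 0.23 (SE) for TIPARP. Leaving out each pig in turn gave 0.38 (without pig 45) to 0.66 (without pig 54) for AHR, and 0.29 (without pig 53) to 0.69 (without pig 54) for TIPARP.

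The comparisons among the other groups were tested. The values of groups I and II entered the choice of the genes as the lower side. Tests that involve these groups are therefore not fully independent of that choice. For cDDGS under rapeseed oil, group II over group I, the log2 fold change was 0.33 ± 0.18 (SE) for AHR (adjusted p = 0.449, edgeR) and -0.11 ± 0.20 (SE) for TIPARP (adjusted p = 0.859). Neither difference passed the test, in a comparison where 0.0291% of 10323 genes were called. The AHR value was 0.19 without pig 22, 0.20 with the share of reads outside genes as covariate and 0.14 with the share of the most abundant gene as covariate. An exact two-sided permutation test on log2(CPM + 0.5) gave p = 0.164 for AHR and p = 0.577 for TIPARP, or 0.264 and 0.659 after adjustment over 8 such tests.

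For coconut oil with cDDGS, group IV over group I, the log2 fold changes were 0.33 ± 0.17 (SE) for AHR (adjusted p = 0.387, edgeR) and 0.40 ± 0.22 (SE) for TIPARP (adjusted p = 0.434). The test called 0% of the 10388 genes, with DESeq2 calling 148, and 854 genes were higher and 621 lower at an unadjusted p under 0.05. Without pig 54 the values fell to 0.17 for AHR and 0.16 for TIPARP. The share of uniquely mapped reads that fell outside annotated genes moved with these groups, with 56.8 ± 2.53% (SD, n = 7) for group I, 56.8 ± 4.0% (SD, n = 5) for group III, 62.5 ± 5.81% (SD, n = 6) for group II and 63.0 ± 5.05% (SD, n = 5) for group IV. With that share as a covariate, the difference of group IV from group I changed sign, to -0.09 ± 0.17 (SE) for AHR and -0.18 ± 0.24 (SE) for TIPARP. That of group III from group I was 0.82 and 0.85. The mean share was 56.8% in both of these groups, so this covariate could hardly change the difference between them. With the share of reads taken by the most abundant gene as covariate, group IV over group I was 0.37 ± 0.21 (SE) for AHR and 0.75 ± 0.24 (SE) for TIPARP.

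Between the coconut oil and rapeseed oil diets that both held cDDGS, group IV over group II, AHR differed by a log2 fold change of -0.01 ± 0.23 (SE, adjusted p = 0.9996, edgeR) and TIPARP by 0.49 ± 0.26 (SE, adjusted p = 0.979). The direction of the AHR value changed with the settings and is not given as one, and the TIPARP value was 0.26 without pig 54. In this comparison 0% of 10062 genes were called, with DESeq2 calling 2, and 209 genes were higher and 293 lower at an unadjusted p under 0.05. Exact permutation tests gave p = 0.931 for AHR and p = 0.165 for TIPARP. Thus the neighbouring means of groups I, II and IV did not differ beyond the spread of the pigs for either gene, which does not show that they were alike.

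**Figure D2:**
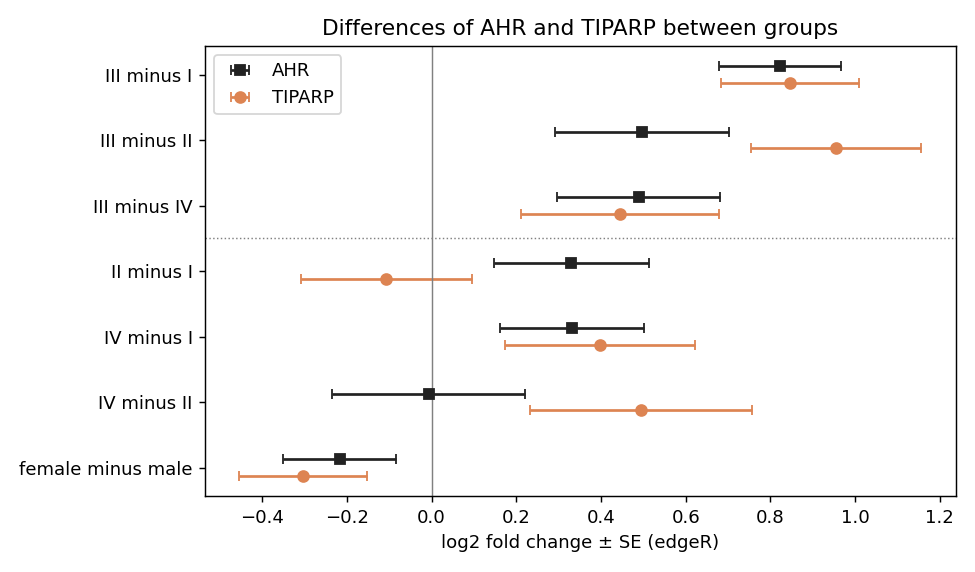
Log2 fold change of AHR (black squares) and TIPARP (orange circles) on the horizontal axis for 7 comparisons, with bars of 1 standard error from edgeR. Values above the dotted line were used to choose the genes and are not tested, and the values below it, none of which passed the test, run from -0.30 to 0.49.

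Over the diets together, the castrated males had somewhat higher levels than the females, without passing the test. With diet in the model, the log2 fold change of females over males was -0.22 ± 0.13 (SE) for AHR (adjusted p = 0.398, edgeR) and -0.30 ± 0.15 (SE) for TIPARP (adjusted p = 0.296), where 0.954% of 10276 genes were called. An exact permutation test that exchanged the sexes within each diet gave p = 0.165 for AHR and p = 0.0947 for TIPARP, both 0.264 after adjustment. In group III, AHR averaged 44.0 CPM in the 3 males and 33.7 CPM in the 2 females, and TIPARP 127 and 117 CPM. The 2 females of group III were above every pig of group I for both genes. That follows from the same statement for all 5 pigs, on which the genes were chosen, and is no further support.

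Whether the receptor and its target moved together was examined between pigs. Within group I, Pearson's r on log2(CPM + 0.5) was -0.10 and Spearman's rho -0.50 (n = 7, exact permutation p = 0.802 and 0.267). Within group II they were 0.26 and 0.09 (n = 6, exact permutation p = 0.631 and 0.919). No relation was detected within either rapeseed oil diet at these numbers, and the groups of 5 pigs were too small to be examined. Over the 18 pigs of groups I, II and IV, r was 0.40 and rho 0.26 (permutation p = 0.108 and 0.300, or 0.323 and 0.451 after adjustment over 3 sets of pigs). Without the 2 pigs farthest from the median of AHR, pigs 54 and 22, r was 0.46. Leaving out each pig in turn moved the r of the 18 pigs between 0.18 (without pig 54) and 0.64 (without pig 22). Its size thus depended on single pigs, and these extremes are a description without a test.

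Over all 23 pigs r was 0.64 and rho 0.58, a description to which the choice of 2 genes high in group III contributes. After each pig's value was taken relative to its group mean, r was 0.44 and rho 0.23. TIPARP ranked at place 69 of 11038 genes by its rho with AHR over the 23 pigs, and at place 1913 once group means were removed. Pig 22 stood apart, with AHR at 40.8 CPM and TIPARP at 46.9 CPM.

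**Figure D3:**
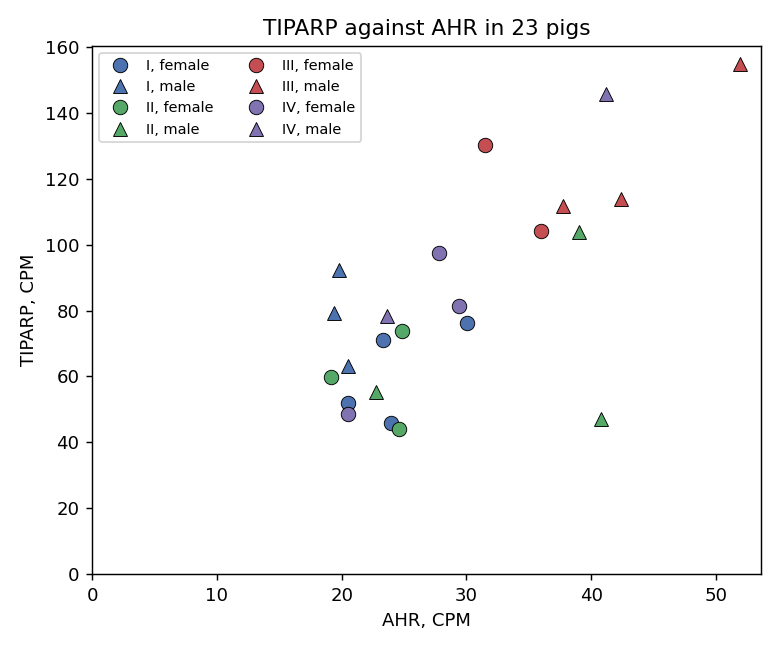
TIPARP in CPM (vertical axis) against AHR in CPM (horizontal axis) for the 23 pigs, coloured by diet group, with circles for females and triangles for males. The pigs of group III lie at the upper right together with pig 54 of group IV and pig 24 of group II, and pig 22 of group II lies alone at the lower right with 40.8 CPM of AHR and 46.9 CPM of TIPARP.

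The number of TIPARP reads for each AHR read does not depend on library size. It was 3.13 ± 0.57 (SD, n = 5) for group III, 3.12 ± 0.96 (SD, n = 7) for group I, 3.10 ± 0.51 (SD, n = 5) for group IV and 2.35 ± 0.75 (SD, n = 6) for group II. Groups I and III had nearly the same mean ratio, both genes being higher in group III by a similar factor. Group II was lowest and held the lowest single value, 1.15 in pig 22. The ratio was examined after the values had been seen, and none of the tests among groups I, II and IV passed, with exact permutation p = 0.148 for group II against I, 0.889 for group IV against I and 0.0952 for group IV against II, or 0.222, 0.889 and 0.222 after adjustment over 3 tests.

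The genes around AHR in the pathway were described from 7 lists with 97 symbols, of which 72 were paired with an identifier and 55 had counts sufficient for a test of group III. Of these 55, edgeR called 0 in group III against group I, with 0 higher and 2 lower at an unadjusted p under 0.05, where 4.07% of all genes were higher and 3.9% lower. Against group II it also called 0, with 0 higher and 4 lower, where the shares of all genes were 2.79% and 3.43%. DESeq2 called 0 of the same genes against group I and 0 against group II. Among all genes, edgeR called 0 in both comparisons, and DESeq2 called 13 of 10423 and 21 of 10410. With so few called among all genes, the 0 called list genes are not read as a result about the pathway. The median log2 fold change of the 55 genes was 0.03 against group I and 0.00 against group II, beside 0.00 in both over all genes tested. The count of higher pathway genes, 0 in both comparisons, was thus not above the share of all genes in the main fit. Against group II it was 1 with DESeq2, with all 23 pigs in 1 fit and with sex as covariate. With the share of reads outside genes as covariate it was 3 of 55. Without pig 41 of group III, the number with an unadjusted p under 0.05 was 6 against group I and 8 against group II. The share of all genes was not counted in these other fits, so their numbers are not read as a result about the pathway.

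Of the 8 tested partners of the receptor, 0 were called in group III against group I or II by edgeR or DESeq2. Among all genes edgeR called 0 and DESeq2 13 and 21, so the 0 of 8 says little about these partners. ARNT, the nuclear partner, averaged 76.1 ± 5.31 CPM (SD, n = 5) with beef tallow, against 73.1 ± 12 (SD, n = 7) for group I, 75.9 ± 6.67 (SD, n = 6) for group II and 80.2 ± 7.89 (SD, n = 5) for group IV. The chaperone genes HSP90AB1 and HSP90AA1 had log2 fold changes of -0.02 ± 0.16 (SE) and -0.50 ± 0.28 (SE) in group III over group I, and -0.01 ± 0.16 (SE) and 0.05 ± 0.23 (SE) over group II. NCOA1, a coactivator of nuclear receptors and of AHR, was the one of 8 partners with an unadjusted p under 0.05 in group III against group II, at -0.27 ± 0.11 (SE, adjusted p = 0.764). AHRR, the repressor of AHR, was not among the symbols paired with an identifier and was not analysed here.

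Among the target genes, 7 of 13 symbols had an identifier and 4 could be tested. CYP1A1, named here for its role and outside the rule for named genes, was low and scattered. It lay between 0.94 and 9.05 CPM with beef tallow, 1.09 and 8.17 for group I, 0.29 and 7.14 for group II and 1.23 and 8.47 for group IV, so all groups overlapped. Its log2 fold change in group III was 0.58 ± 0.51 (SE, adjusted p = 0.818) over group I and 1.16 ± 0.60 (SE, adjusted p = 0.828) over group II. These values were positive as for TIPARP, but with errors that do not separate them from 0.

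The antioxidant enzyme gene NQO1 had log2 fold changes of -0.14 ± 0.21 (SE) over group I and 0.08 ± 0.28 (SE) over group II. NFE2L2, which encodes the oxidative stress regulator NRF2, had 0.08 ± 0.11 (SE) and 0.22 ± 0.13 (SE). SCIN, an actin-severing protein gene, was lower in group III than in group II at an unadjusted p, by -0.99 ± 0.43 (SE, adjusted p = 0.770), at a mean of 9.28 CPM over all pigs. None of these genes was higher in group III beyond the spread between pigs.

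TIPARP belongs to the PARP family, of which 15 other members, readers or erasers of ADP-ribose were tested. None of the 15 had an unadjusted p under 0.05 in group III against group I or group II, and their median log2 fold changes were 0.08 and -0.08. Of all genes, 4.07% were higher and 3.9% lower against group I, and 2.79% and 3.43% against group II. At these shares, 0 of 15 is not read as a result about the family. The tankyrase genes TNKS and TNKS2, the most abundant of the list, were at 0.03 ± 0.09 (SE) and -0.02 ± 0.11 (SE) over group I. The values of the list ran from -0.33 to 0.18 against group I and from -0.27 to 0.56 against group II.

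Of the list of other bHLH-PAS genes, which also held the PAS genes PER1 and PER2, 8 were tested. The hypoxia factors EPAS1 and HIF1A had log2 fold changes of 0.16 ± 0.14 (SE) and -0.22 ± 0.18 (SE) in group III over group I, and 0.27 ± 0.18 (SE) and 0.23 ± 0.15 (SE) over group II. BMAL1, a core gene of the circadian clock, had the most negative log2 fold change of the tested genes of this list in group III over group I. Its level was 6.05 ± 1.98 CPM (SD, n = 5) for group III, against 11 ± 2.35 (SD, n = 7) for group I, 8.07 ± 2.73 (SD, n = 6) for group II and 7.98 ± 2.83 (SD, n = 5) for group IV. Its log2 fold change of -0.89 ± 0.22 (SE) in group III over group I did not pass adjustment (adjusted p = 0.478).

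Enzymes that make tryptophan metabolites, some of them ligands of AHR, were represented by 4 testable genes. KYAT3, a kynurenine aminotransferase and the most abundant of them, was at -0.05 ± 0.19 (SE) over group I and 0.01 ± 0.24 (SE) over group II. KMO, the kynurenine hydroxylase, averaged 4.05 CPM in group I, 9.42 in group II and 4.71 in group III, and KYNU, kynureninase, 4.12, 6.54 and 2.84 CPM. Both were lower in group III than in group II at an unadjusted p, by -1.0 ± 0.36 (SE, adjusted p = 0.718) and -1.23 ± 0.34 (SE, adjusted p = 0.550). Over group I, KMO was at 0.17 ± 0.42 (SE) and KYNU at -0.57 ± 0.33 (SE). The 4 tested macrophage markers were also lower in mean in group III than in group II, with CD68 at -0.77 ± 0.34 (SE) and CD14 at -0.68 ± 0.31 (SE), and their part in these values was not tested. IDO1 and IDO2, the enzymes that start the pathway outside the liver, had 19 and 3 reads in all pigs together, too few to test.

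Of the receptors known to work with AHR or TIPARP, 6 were tested and 0 had an unadjusted p under 0.05 in group III against group I or II by edgeR. At the shares of all genes, 4.07% higher and 3.9% lower against group I and 2.79% and 3.43% against group II, this is not read as a result. PPARG, the master regulator of fat cell differentiation, was at 0.20 ± 0.17 (SE) and -0.12 ± 0.22 (SE), and NR1H2, a liver X receptor, at 0.03 ± 0.13 (SE) and 0.00 ± 0.11 (SE). The immediate-early genes, which respond quickly to many stimuli, were listed because TIPARP can also respond to such stimuli. In group III against group I, 2 of these 10 genes had positive values and ATF3 was lower at an unadjusted p, by -0.73 ± 0.28 (SE, adjusted p = 0.555). Against group II, 5 of the 10 had positive values and the median was 0.00. FOS and EGR1 were at -0.63 ± 0.42 (SE) and -0.37 ± 0.34 (SE) over group I, and at -0.18 ± 0.33 (SE) and 0.02 ± 0.33 (SE) over group II.

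**Figure D4:**
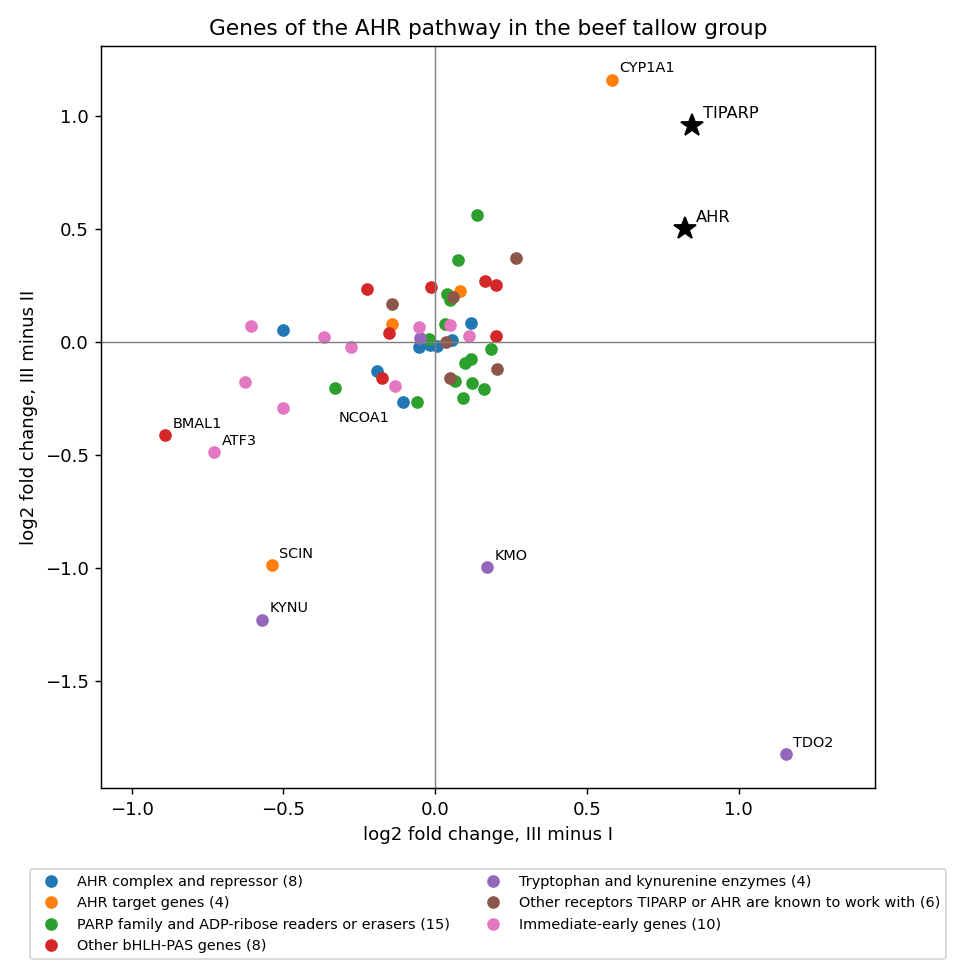
Log2 fold change of group III over group I (horizontal axis) and over group II (vertical axis) for the 55 tested genes of the 7 lists, coloured by list, and for AHR and TIPARP as black stars. Most list genes lie near 0 on both axes, CYP1A1 lies near TIPARP with 0.58 and 1.16, and KMO, KYNU, SCIN and TDO2 lie low on the vertical axis. Group III is shared by both axes.

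In the comparisons among the other groups, 54 or 55 list genes could be tested and 0 were called by edgeR. Among all genes, edgeR called 3 in group II against group I and 0 in the others. In group II against group I, 4 were higher and 6 lower at an unadjusted p under 0.05, where 6.55% and 6.41% of all genes were. In group IV against group I, 3 were higher and 2 lower, beside 8.22% and 5.98% of all genes, and in group IV against group II 1 was higher and 0 lower, beside 2.08% and 2.91%. DESeq2 called 0, 1 and 0 list genes in these comparisons, and 84 of 10323, 148 of 10388 and 2 of 10062 among all genes. The 1 of 55 is near the share of all genes and is not read as a result about the lists. It was PARP1, the main DNA-damage sensor of the family, at a log2 fold change of 0.56 in group IV over group I (adjusted p = 0.0472 in DESeq2). In edgeR its value was 0.55 ± 0.15 (SE, adjusted p = 0.154). PARP1 was named after its values were seen.

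Markers of other cell types also differed in mean between the diets, and their part in the levels of AHR and TIPARP was not tested. The summed level of 5 fibroblast and progenitor markers lay between 4875 and 11329 CPM with beef tallow, 8599 and 15479 for group I, 8555 and 16060 for group II and 6706 and 12453 for group IV. All 5 had lower means in group III than in group I and in group II, and edgeR called 0 of them (smallest adjusted p = 0.555 and 0.761). At an unadjusted p under 0.05, 3 were lower against group I and 2 against group II, beside 3.9% and 3.43% of all genes. Among them was the collagen gene COL1A2, at -0.74 ± 0.28 (SE) and -0.82 ± 0.34 (SE). Over the 23 pigs, the rho of this sum was -0.42 with AHR and -0.59 with TIPARP, and -0.23 and -0.31 relative to group means.

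The 5 macrophage markers with an identifier summed to 58.8 to 183 CPM with beef tallow, 32.2 to 132.6 for group I, 140 to 295 for group II and 67.2 to 166 for group IV. Over the 23 pigs, the rho of this sum was -0.02 with AHR and -0.37 with TIPARP, and -0.16 and -0.62 relative to group means. The 4 adipocyte markers summed to 2469 ± 222 CPM (SD, n = 5) with beef tallow, 3025 ± 427 (SD, n = 7) for group I, 2479 ± 561 (SD, n = 6) for group II and 2384 ± 198 (SD, n = 5) for group IV. The rho of this sum was -0.52 with AHR and -0.04 with TIPARP, and -0.44 and 0.35 relative to group means. No marker with an identifier was at 0 in all pigs. Identifiers were found for 4 of 8 adipocyte and 5 of 10 macrophage symbols, and the remaining symbols were not measured here.

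The sums of 4 endothelial markers ranged from 462 to 992 CPM in group I and from 729 to 1039 in group III, with a rho of 0.43 with AHR and 0.46 with TIPARP, and 0.24 and 0.35 relative to group means. Those of 7 T and B cell markers ranged from 6.20 to 15.9 CPM in group I and from 5.62 to 14.3 in group III, those of 3 keratinocyte markers from 2.19 to 8.60 and from 3.70 to 7.30, and those of 2 skeletal muscle markers from 1.10 to 990 and from 1.75 to 1591. The muscle markers thus varied widely between the pigs of a diet. The most abundant gene of the libraries took 31.6 ± 4.67% (SD, n = 5) of the gene reads with beef tallow, 32.0 ± 3.84% (SD, n = 7) for group I, 27.1 ± 3.99% (SD, n = 6) for group II and 26.1 ± 4.16% (SD, n = 5) for group IV. With this share as a covariate, the log2 fold change of TIPARP in group III was 0.86 over group I and 0.80 over group II, and that of AHR 0.83 and 0.57. Over group IV it was 0.14 ± 0.23 (SE) for TIPARP, against 0.44 without the covariate. The mean share was similar in groups I and III, so this covariate could hardly change the difference between them.

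The genes most like AHR over the 23 pigs, by Spearman's rho on log2(CPM + 0.5), were AGTR1 at 0.75, the angiotensin receptor gene, TLE3 at 0.75, a transcriptional corepressor gene, TMEM204 and SH3RF2 at 0.70 and TMOD3 at 0.69. AGTR1 averaged 94.6 CPM with beef tallow, 89.2 for group IV, 82.6 for group II and 68.1 for group I. For TIPARP they were ZCCHC2 at 0.84, PLPP1, a lipid phosphatase gene, at 0.82, and the unnamed identifiers ENSSSCG00000004754 at 0.78, ENSSSCG00000009422 at 0.77 and ENSSSCG00000026955 at 0.76. No gene was on both lists of 5. These values are picked as the highest of 11038 and are a description.

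In the RefSeq gene order of the assembly Sscrofa11.1, the nearest tested neighbours of TIPARP were SSR3, CCNL1 and KCNAB1, with log2 fold changes of 0.04 ± 0.12 (SE), -0.03 ± 0.16 (SE) and 0.16 ± 0.20 (SE) in group III over group I. Next to AHR, SNX13 was at 0.00 ± 0.11 (SE), and AGR2, with a low mean of 2.34 CPM, was at 0.89 ± 0.31 (SE). Over group II these were 0.08 ± 0.15 (SE), 0.21 ± 0.14 (SE) and 0.23 ± 0.20 (SE) beside TIPARP, and 0.11 ± 0.12 (SE) and 0.62 ± 0.27 (SE) beside AHR, in the same order. Coordinates are not printed, because the assembly version behind the counted identifiers could not be matched to this order.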

How the data were processed

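Total RNA of backfat was prepared with a stranded ribosome-depleted kit, sequenced by the authors, mapped with TopHat and counted with HTSeq on Ensembl genes. Their deposited files hold the raw counts, in whole reads and without normalization. The 5 summary rows were left out of library sizes, and reads outside genes made up 51.1 to 71.3% of the uniquely mapped reads of a pig. Of 25322 gene rows, 11804 were given a symbol from reference tables, and 102 of 151 listed symbols had an identifier.

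Counts were normalized with TMM, filtered with filterByExpr and tested with glmQLFTest of edgeR 4.0.16 in R 4.3.3, with Benjamini-Hochberg adjustment over all genes tested. A gene was called at an adjusted p under 0.05 where it also changed over 1.3-fold. SEs of log2 fold changes were derived from the F statistic. Sex was tested with diet as covariate. Single values were compared by permutation on log2(CPM + 0.5), and p-values for 18 pigs came from 100000 resamples (scipy 1.17.1).

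Alternatives were DESeq2 1.42.0, median-ratio factors, no filter, at least 10 counts in every pig, all 23 pigs in 1 fit, covariates (sex, reads outside genes, RNA integrity), pseudocounts of 0.1 and 5 for the correlations, and leaving out each pig. The share of the most abundant gene as covariate, the ratio of TIPARP to AHR reads and the interaction of sex and diet were added after the values had been seen. The genes named from the lists were those with an unadjusted p under 0.05 in group III against group I or II and the 2 most abundant of each list, and beside each of AHR and TIPARP the 5 genes of highest rho. AHR and TIPARP, the lists and the tests were chosen with earlier results of these data known. Tests were tried on simulated counts.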

Additional observations from a re-analysis of the deposited data

Results flagged for a closer look

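In group I, AHR of pig 1 was 30.1 CPM, and its gap to the next pig was 0.568 of the range of the 7 pigs, at the limit of 0.568 for an outlying value. Pig 41 of group III had 4.13 TIPARP reads per AHR read, with a gap of 0.796 of the range of the 5 pigs, above the limit of 0.71. These were 2 values out of 12 sets of pigs examined, where chance flags about 1 in 20.

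The AHR difference between the sexes had opposite directions in groups I and III. All 4 females of group I (20.5 to 30.1 CPM) were above its 3 males (19.4 to 20.5 CPM), by a margin of 20.525 against 20.508 CPM, whereas the 2 females of group III (31.5 and 35.9 CPM) were below its 3 males (37.8 to 51.9 CPM). The interaction of sex and diet in edgeR over 3 coefficients had an unadjusted p of 0.0696 for AHR and an adjusted p of 0.9998 over 11039 genes. The opposite directions thus did not pass the test, which was added after the values had been seen.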

How the results depend on the processing

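Under the alternatives that kept all pigs, AHR in group III over group I stayed between 0.81 and 0.83 and TIPARP between 0.81 and 0.97, and over group II they stayed between 0.46 and 0.57 and between 0.80 and 0.97. Groups I and III had similar mean shares of reads outside genes and of the most abundant gene, so these covariates could hardly change their difference. With the share of reads outside genes as covariate, group IV over group I turned to -0.086 for AHR and -0.18 for TIPARP, and TIPARP in group III over group IV moved to 0.90. With the share of the most abundant gene as covariate, TIPARP in group II over group I turned to 0.10. AHR in group IV over group II turned to 0.016 without a filter, 0.0019 with all 23 pigs in 1 fit, 0.058 with sex and 0.011 with RNA integrity as covariate. The causes of these shifts were not tested. Without a filter, 4 of 68 list genes instead of 2 of 55 had an unadjusted p under 0.05 in group III against group I, 0 of them higher. The share of all genes was not counted in that fit.

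Leaving out each pig gave log2 fold changes of AHR from 0.71 to 0.91 (group III over I), 0.38 to 0.64 (III over II), 0.38 to 0.66 (III over IV), 0.19 to 0.43 (II over I), 0.17 to 0.43 (IV over I), -0.17 to 0.13 (IV over II) and -0.26 to -0.14 (females over males). For TIPARP they were 0.75 to 0.93, 0.85 to 1.13, 0.29 to 0.69, -0.29 to -0.02, 0.16 to 0.56, 0.26 to 0.68 and -0.36 to -0.21, in the same order. Pig 45, the highest in both genes, set the lower ends for group III over groups I and II. The counts of list genes ranged from 2 to 6 (III against I), 2 to 8 (III against II), 5 to 12 (II against I), 3 to 8 (IV against I) and 1 to 7 (IV against II), with both highest counts for group III without pig 41. The shares of all genes were not counted in these fits, so the ranges have no background beside them. Pearson's r of AHR and TIPARP ranged from -0.59 to 0.12 in group I and from 0.18 to 0.64 over groups I, II and IV.

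DESeq2 called 13 genes where edgeR called 0 (III against I), 21 against 0 (III against II), 84 against 3 (II against I), 148 against 0 (IV against I), 2 against 0 (IV against II) and 243 against 98 between the sexes. For III against I, edgeR called 1 gene without a filter, and for III against II it called 4 both without a filter and with at least 10 counts in every pig. Between the sexes it called 158 without a filter. AHR rested on as few as 49 reads in a pig, which limits its precision more than that of TIPARP.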
